A study of Mus musculus with 12 samples.

Results

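The non-clustered protocadherins are cell adhesion proteins of the cadherin superfamily whose genes lie apart from the large clustered protocadherin arrays. The 10 genes taken here were the rows of the deposited count table that carry the symbols Pcdh1, Pcdh7, Pcdh8, Pcdh9, Pcdh10, Pcdh11x, Pcdh17, Pcdh18, Pcdh19 and Pcdh20, out of 23079 genes, and they were followed through all 12 libraries of mouse pontine nucleus neurons. Of these 10 genes, 9 had enough counts to be tested, among 14732 tested genes. Pcdh20 did not.

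The study asks how Hoxa5, a homeodomain transcription factor of the posterior hindbrain, acts on the formation of a subset of the pontine nuclei, the hindbrain nuclei that relay cortical input to the cerebellum. All libraries came from CD-1 embryos at E18.5, shortly before birth. Genetically labelled neurons were microdissected, dissociated, sorted by FACS straight into lysis buffer, and their RNA was amplified before sequencing. The reference group, titled Math1tdTomato, had 6 libraries, and the groups titled Hoxa5tdTomato and Math1Hoxa5-IRES-GFP had 3 each. The titles give the allele names and no more. Math1 (Atoh1) is a gene of the rhombic lip lineage that yields the pontine neurons, and tdTomato and GFP are fluorescent proteins. In the column names of the table, 3 references are called Math1_creErt2 and 3 Math1_tdT. Hoxa5tdTomato is called Hoxa5_cre there, and Math1Hoxa5-IRES-GFP is called Math1_Cag_lsl_Hoxa5. From these words alone the creErt2 references were set with Hoxa5tdTomato (set 1) and the tdT references with Math1Hoxa5-IRES-GFP (set 2). Going by these names, Hoxa5tdTomato neurons are labelled by another allele than the references, and the labelled population and its Hoxa5 level cannot be told apart in that comparison. No label says that replicates came from separate embryos, so p-values measure the spread between these libraries, which may be technical.

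Total counts ran from 9973484 to 13302076 in set 1 and from 22355961 to 29820776 in set 2. Hoxa5, given in CPM (the count scaled to the library's total, itself adjusted by a TMM factor), was 8.79, 8.62 and 23.1 in the creErt2 references, 8.06, 4.35 and 32.2 in the tdT references and 127, 222 and 119 in Hoxa5tdTomato. In the libraries labelled Math1Hoxa5-IRES-GFP it was 9.73, 16.8 and 82.0. Replicates 1 and 2 thus lay within the range of the references, and their label is not borne out by the Hoxa5 count. The titles do not say which Hoxa5 bases the allele of this label carries, so whether its transcript enters this count was not tested. Replicate 3 of that label stood apart: it had the fewest genes with a count (13074, against 14779 to 16290 elsewhere). Math1Hoxa5-IRES-GFP replicates correlated with each other at r = 0.86 to 0.914, against 0.926 to 0.943 in the other groups (across genes, which are not independent). Xist CPM was 4.36 to 10.9 in 3 libraries (replicate 1 of Hoxa5tdTomato, replicate 2 of the tdT references and replicate 3 of Math1Hoxa5-IRES-GFP) and 1570.1 to 5440.4 in the others. Summed CPM of 10 markers of pontine neurons was 2481 to 3262 in the references, 2345 to 2660 in Hoxa5tdTomato and 2767 to 3590 in the libraries labelled Math1Hoxa5-IRES-GFP, with no marker at 0 in all libraries of a group and 1 at 0 in each of 3 single libraries. These are bulk libraries, so fewer cells expressing a gene and less RNA per cell cannot be told apart.

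Each non-clustered protocadherin has an extracellular part of cadherin repeats, most of it coded by a single large exon, a membrane span and a cytoplasmic tail that differs between subgroups. The proteins bind weakly to their own kind on neighbouring cells. In the developing brain their combinations mark nuclei, layers and fibre tracts, and they are known for roles in axon growth, cell sorting and synapse formation. Pcdh1, Pcdh7, Pcdh9 and Pcdh11x form the δ1 subgroup, whose tails carry a motif that binds protein phosphatase-1. Pcdh8, Pcdh10, Pcdh17, Pcdh18 and Pcdh19 form the δ2 subgroup, whose tails recruit the WAVE complex, the activator of branched actin assembly. Pcdh20 is a more distant relative.

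In build GRCm38.p6, which has the coordinates of the mm10 genome named for the counts, the genes other than Pcdh1 lay as follows. Pcdh8 (79766772 to 79771312), Pcdh9 (93013700 to 93892834), Pcdh17 (84443563 to 84537565) and Pcdh20 (88464743 to 88471396) are on chromosome 14. Pcdh10 (45378398 to 45434579) and Pcdh18 (49743291 to 49757383) are on chromosome 3, and Pcdh7 (57716145 to 58133236) is on chromosome 5. In the deposited table Pcdh7, Pcdh9 and Pcdh19 are Entrez genes 54216, 211712 and 279653. Pcdh11x (120290238 to 120910622) and Pcdh19 (133582860 to 133689044) are on the X chromosome. The largest coding exon held 62.2% to 95.4% of the coding bases of each gene.

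The 250 bases before the start were taken from RefSeq's promoter table (GRCm38.p6) for 8 of the 10 genes. Promoters of Pcdh7, Pcdh9 and Pcdh19, the 3 genes that passed in a fit of all 12 libraries against all references, are printed whole, because these are the sequences beside which the measured changes lie. They run 5′ to 3′ on the gene's strand and end at the base before the start that RefSeq's promoter entry gives. For Pcdh7 and Pcdh9 that start lies inside the gene span given above, so their windows lie within the span and not before it. The Pcdh19 window overlaps the 5′ end of its span. Capitals mark the letters CCAAT, or ATTGG where they are on the opposite strand.
Pcdh19, chrX:133688994-133689243, minus strand: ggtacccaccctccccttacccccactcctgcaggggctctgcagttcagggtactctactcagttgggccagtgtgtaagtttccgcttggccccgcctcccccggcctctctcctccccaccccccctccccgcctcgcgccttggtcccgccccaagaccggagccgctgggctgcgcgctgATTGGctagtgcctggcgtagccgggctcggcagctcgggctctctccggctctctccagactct
Pcdh9, chr14:93890680-93890929, minus strand: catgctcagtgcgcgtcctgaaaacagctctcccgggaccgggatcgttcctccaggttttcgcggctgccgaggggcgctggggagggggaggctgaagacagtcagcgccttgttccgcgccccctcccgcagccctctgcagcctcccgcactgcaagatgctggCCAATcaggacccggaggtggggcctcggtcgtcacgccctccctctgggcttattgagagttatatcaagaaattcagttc
Pcdh7, chr5:57717831-57718080, plus strand: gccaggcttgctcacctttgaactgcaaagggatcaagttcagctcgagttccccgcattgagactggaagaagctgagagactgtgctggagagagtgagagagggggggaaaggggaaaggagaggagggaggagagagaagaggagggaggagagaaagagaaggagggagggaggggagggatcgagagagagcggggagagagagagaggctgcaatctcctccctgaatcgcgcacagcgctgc

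The promoters of this family were rich in GC (42.4% to 69.2%, median 63.4%, against a median of 52% over 27025 promoters of the same length). They held 3 to 23 CpG dinucleotides (median 17, against 6). CCAAT on either strand, the letters of the CCAAT box, was found in 7 of the 8, all but Pcdh7, against 34.5% of all promoters. In 6 of the 8 it lay within the 100 bases nearest the start, against 19.6%. These letters were searched after the sequences had been seen, so the count is a description. Pcdh17 held 2 matches. For the 5 other promoters the match nearest the start is shown with 12 bases on each side. The flanks can thus be compared with those of Pcdh19 and Pcdh9 above.
Pcdh18, 28 bases before the start: ggaagctcgctgATTGGctggaagcgatt
Pcdh17, 54 bases before the start: ctccccacgccgATTGGctggcagagaat
Pcdh10, 46 bases before the start: tgctcctcggcgATTGGttggcagaatga
Pcdh8, 64 bases before the start: ggctaagcgaccATTGGctggccccttcc
Pcdh20, 181 bases before the start: gctttgccatcaCCAATagcgaaaattaa
TAAT, the core letters that many homeodomain proteins prefer, was in 3 of the 8 on either strand (Pcdh8, Pcdh18 and Pcdh20), against 55.3% of all promoters. TGATNNAT, the letters of a composite HOX and PBX site, was in 0 of the 8, against 7.91%. The windows printed for Pcdh7, Pcdh9 and Pcdh19 thus hold neither set of letters. This says nothing of sites elsewhere, such as before the outer 5′ ends of the spans of Pcdh7 and Pcdh9.

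In the reference neurons, levels per kilobase of gene length (CPM divided by the length in the deposited table, mean ± SD, n = 6) spanned a wide range. Pcdh9, a δ1 member broadly present in developing neurons, led with 40.4 ± 3.96 CPM per kb. Pcdh7, which binds the Set protein and acts in axon growth, had 17.4 ± 3.82. Pcdh17, which acts in axon extension and presynaptic assembly, had 15.6 ± 2.98, and Pcdh1, also known from airway epithelium, had 13.6 ± 7.90. Pcdh10, which recruits Nckap1 of the WAVE complex and acts in axon growth, had 8.88 ± 2.35, and Pcdh19, an X-linked partner of N-cadherin, had 8.71 ± 2.57. A low tier followed, with Pcdh11x, a regulator of dendrite branching, at 1.95 ± 0.802, Pcdh8, an activity-induced member that drives internalisation of N-cadherin, at 1.72 ± 0.691, and Pcdh18, which binds the adaptor Dab1, at 1.24 ± 0.800. Pcdh20 had 0.0397 ± 0.0514. The RNA was amplified and the coverage along each gene was not examined, so dividing by the whole length is an approximation. By mean CPM alone the order differed: Pcdh17 (172.6) lay above Pcdh7 (158.6), and Pcdh10 (104.8) and Pcdh19 (89.7) lay above Pcdh1 (53.2).

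The order per kilobase held against the spread at 3 steps. Every reference library had more Pcdh9 per kilobase than any had Pcdh7 (lowest 34.5, highest 22.6), more Pcdh19 than Pcdh11x (lowest 4.02, highest 3.10) and more Pcdh18 than Pcdh20 (lowest 0.464, highest 0.119). All other neighbours in the order overlapped. Pcdh9 was also the steadiest of the 9 tested genes over the 6 references, with a coefficient of variation of 9.81%, and Pcdh1 (57.9%) and Pcdh18 (64.5%) varied most, against a median of 31.7% over all tested genes.

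**Figure D1:**
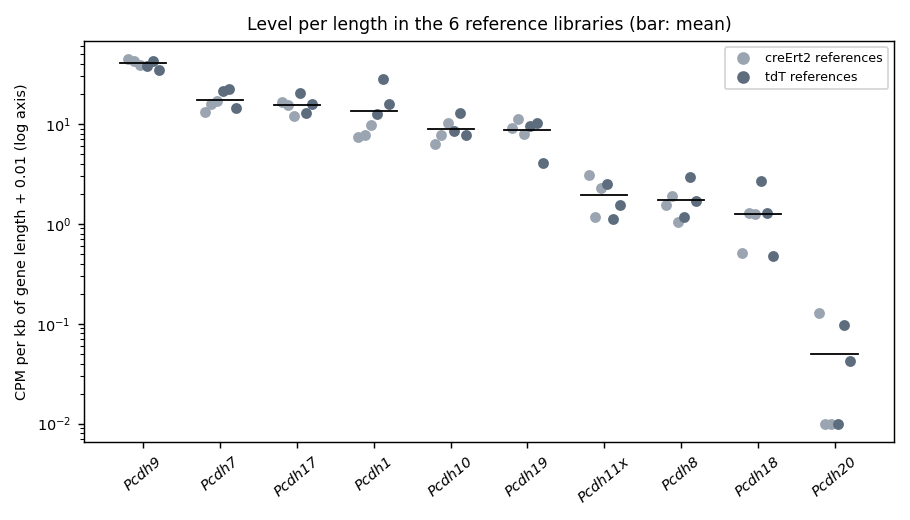
CPM per kilobase of each non-clustered protocadherin in the 6 reference libraries (log axis, 0.01 added so that libraries at 0 can be drawn; points are libraries, bars their mean). Pcdh9 stands above the rest at a mean of 40.4, 5 genes lie between 8.71 and 17.4, and Pcdh20 lies at the bottom.

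Pcdh20, whose protein is known from olfactory axons, had 7, 0 and 0 counts in the creErt2 references, 0, 10 and 4 in the tdT references, 0, 0 and 2 in Hoxa5tdTomato and 21, 0 and 0 in the libraries labelled Math1Hoxa5-IRES-GFP. A count of 0 allows up to 3 counts, or 0.107 to 0.274 CPM depending on the library, for counting error alone, and amplified reads are not independent molecules. No group had counts in all of its libraries.

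The first comparison set neurons labelled through the Hoxa5 allele against all 6 Math1tdTomato references. In Hoxa5tdTomato, 1 of the 9 tested genes passed higher (Pcdh19), against 0.842% of all tested genes, and 0 passed lower, against 0.889%. The median log2 difference of the 9 genes was 0.48, with 7 above 0, beside 0.00 over all tested genes. The gene that passed belongs to the δ2 subgroup. Pcdh11x, Pcdh18 and Pcdh9 did not pass, although their 3 Hoxa5tdTomato libraries lay above all 6 references.

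Among the δ2 members, Pcdh19 CPM was 93.2, 116.6 and 81.5 in the creErt2 references, 98.9, 106.4 and 41.4 in the tdT references and 340.2, 249.6 and 247.4 in Hoxa5tdTomato. All 3 Hoxa5tdTomato libraries lay well above every reference of both sets. The mean went from 89.7 ± 26.5 (SD, n = 6) to 279.1 ± 53.0 (n = 3), a log2 difference of 1.64 ± 0.36 (SE; 95% interval 0.87 to 2.40; adjusted p = 0.0293). The adjusted p missed the threshold without replicate 1, 2 or 3 of Hoxa5tdTomato (0.193, 0.107 and 0.0967). It also did so without replicate 3 of the creErt2 references (0.0528) or replicate 1 or 3 of the tdT references (0.0541 for each). The log2 differences in these fits were 1.47 to 1.72. Pcdh19 protein acts together with N-cadherin, and its gene underlies an epilepsy that mainly affects girls. Per kilobase it reached 27.1 ± 5.14 CPM in Hoxa5tdTomato, beside 56.2 ± 6.13 for Pcdh9 and 25.1 ± 5.53 for Pcdh7. Its libraries there (24.0 to 33.0) overlapped those of Pcdh7 (21.6 to 31.4), as they overlapped those of Pcdh10 in the references.

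Pcdh18 CPM was 2.58, 6.66 and 6.52 in the creErt2 references, 13.8, 6.52 and 2.40 in the tdT references and 21.2, 17.2 and 20.4 in Hoxa5tdTomato. The groups did not overlap, but the fitted spread of this low gene was wide (log2 difference 1.61 ± 0.79 SE; adjusted p = 0.368). Pcdh8 overlapped, with 6.77 to 13.8 CPM against 4.17 to 11.9 (0.42 ± 0.57; adjusted p = 0.819). Pcdh10 was 79.1 to 88.9 CPM against 74.2 to 152.2 in the references (-0.35 ± 0.23; adjusted p = 0.546), and Pcdh17 was 162.3 to 206.9 against 132.5 to 225.8 (0.14 ± 0.17; adjusted p = 0.807). The 3 Hoxa5tdTomato libraries of each of these last 2 genes lay within the range of the references.

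Among the δ1 members, Pcdh9 CPM was 279.0, 269.0 and 242.9 in the creErt2 references, 235.5, 268.7 and 214.7 in the tdT references and 385.1, 309.4 and 355.7 in Hoxa5tdTomato. The groups did not overlap, and the log2 difference was 0.48 ± 0.16 (adjusted p = 0.145). Pcdh11x CPM was 14.8, 5.60 and 10.9, then 11.9, 5.25 and 7.42 in the references and 21.2, 32.1 and 18.9 in Hoxa5tdTomato, again without overlap (1.37 ± 0.53; adjusted p = 0.221). Pcdh7 had 120.3 to 205.2 CPM in the references and 286, 201 and 196.8 in Hoxa5tdTomato (0.52 ± 0.25; adjusted p = 0.337), above the creErt2 references (up to 155.0) but not above the tdT references. Pcdh1 had 37.1 to 44.6 CPM against 28.7 to 110.6 (-0.39 ± 0.38; adjusted p = 0.728), and its sign turned against the creErt2 references alone (0.34). In all, 4 of the 9 genes lay above all 6 references in every Hoxa5tdTomato library, against 7.15% of all tested genes, and 0 lay below them, against 6.93%.

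**Figure D2:**
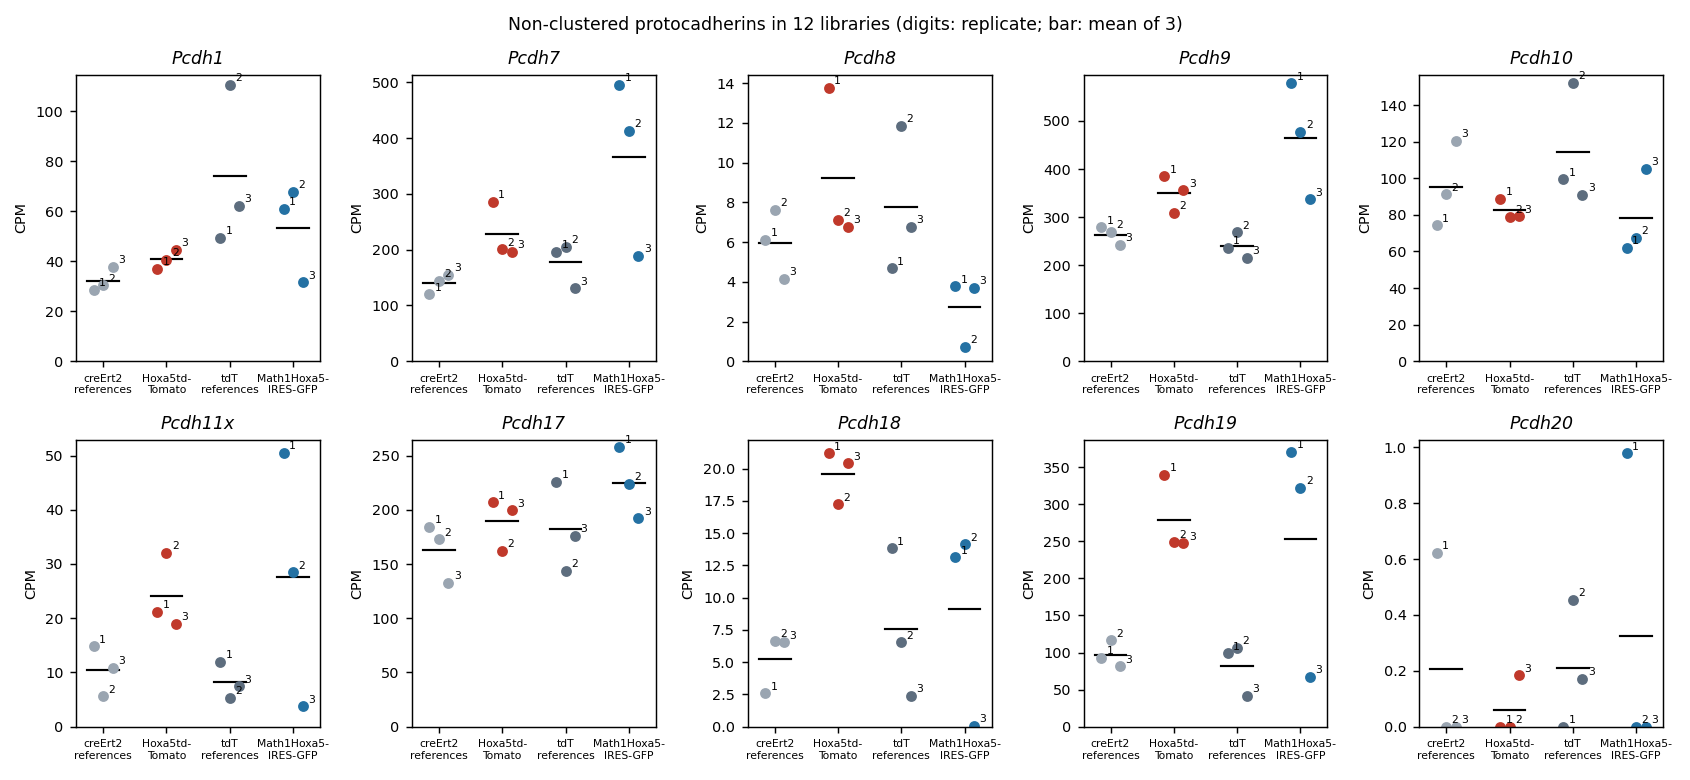
CPM of each non-clustered protocadherin in every library, a panel per gene with its own axis (digits are replicate numbers, bars the mean of 3). In Hoxa5tdTomato the 3 libraries sit together above the references for Pcdh9, Pcdh11x, Pcdh18 and Pcdh19, and replicate 3 of Math1Hoxa5-IRES-GFP sits below its 2 companions for Pcdh7, Pcdh11x, Pcdh18 and Pcdh19.

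Hoxa5tdTomato was also set against the 3 creErt2 references of its own set, with the spread shared by all 12 libraries. No member passed (0 of 9 higher, against 0.292% of all tested genes). An unadjusted p under 0.05 was reached by 3 members, beside 1312 of 14732 tested genes. The change of Pcdh19 was of similar size there, 1.52 ± 0.45 (95% interval 0.56 to 2.49; adjusted p = 0.21), as were those of Pcdh18 (1.90 ± 1.02; adjusted p = 0.649) and Pcdh7 (0.70 ± 0.28; adjusted p = 0.432). When the spread came from the 6 libraries of set 1 alone, 5 of the 9 genes passed higher, against 4.18% of the genes tested there: Pcdh19 at 1.55 ± 0.15 (adjusted p = 5.6e-06), Pcdh18 at 1.93 ± 0.40 (adjusted p = 0.00487), Pcdh7 at 0.73 ± 0.15 (adjusted p = 0.00458), Pcdh9 at 0.44 ± 0.11 (adjusted p = 0.0206) and Pcdh11x at 1.24 ± 0.36 (adjusted p = 0.0455). The same 5 genes had Hoxa5tdTomato libraries above all 3 creErt2 references, against 12.7% of all tested genes. The differences moved little between these fits, while the standard error of Pcdh19 went from 0.45 to 0.15. Leaving out replicate 3 of Math1Hoxa5-IRES-GFP, which takes no part in the comparison other than through the shared spread, 4 of the 9 genes passed higher against all references (Pcdh9, Pcdh11x, Pcdh18 and Pcdh19, against 2.25% of all tested genes).

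Markers of vessel-associated cells moved with this group. Summed CPM of 12 endothelial markers was 131.6 to 244.7 in Hoxa5tdTomato against 3.57 to 34.8 in the references, with 0 of them at 0 in all libraries of either group. For 8 pericyte markers it was 115.3 to 237.0 against 2.00 to 27.4, with Anpep at 0 in all references, and for 8 markers of meninges and fibroblasts 39.0 to 79.3 against 1.46 to 13.9, with Dcn and Aldh1a2 at 0 in Hoxa5tdTomato. Of these lists, 2 of 11 tested endothelial, 3 of 8 pericyte and 0 of 4 tested meningeal markers passed higher, against 0.842% of all tested genes. Markers near 0 in the references, such as Anpep, may have passed the count filter only through the libraries where they are high, so these calls are a description. Their part in the levels of the protocadherins was not tested. Markers of oligodendrocyte lineage summed to 144 to 177 against 74.7 to 133, and those of astrocytes (373 to 639 against 183 to 528) and microglia (7.54 to 43.0 against 0.321 to 8.79) overlapped.

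The second comparison set the libraries labelled Math1Hoxa5-IRES-GFP, whose replicates 1 and 2 had Hoxa5 at reference levels, against the same 6 references. Of the 9 tested genes 3 passed higher (Pcdh7, Pcdh9 and Pcdh19), against 1.30% of all tested genes, and 0 passed lower, against 0.543%. The median log2 difference of the 9 was 0.50, with 7 above 0, beside 0.00 over all tested genes. The genes that passed were 2 of the δ1 and 1 of the δ2 members. This comparison shares its references with the first.

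Pcdh9 CPM was 578.5, 477.2 and 337.2 in the libraries labelled Math1Hoxa5-IRES-GFP, and every one lay above the highest reference of either set (279.0). Its mean was 464.3 ± 121 (SD, n = 3) against 251.6 ± 24.7 (n = 6), a log2 difference of 0.88 ± 0.16 (95% interval 0.56 to 1.21; adjusted p = 0.00573). Pcdh9 was the sole member above all 6 references in all 3 libraries, against 3.11% of all tested genes, and the sole member to pass against the tdT references of its own set (0.95 ± 0.18; adjusted p = 0.0147; 1 of 9 higher, against 0.536%). The latter call was lost without tdT reference replicate 1 (adjusted p = 0.0822) or 3 (0.112) and with the spread of the 6 libraries of set 2 alone (0.96 ± 0.22; adjusted p = 0.254), where no member passed, against 0.0522% of the genes tested there.

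Pcdh7 CPM was 495.5, 413.7 and 189.7, so that replicates 1 and 2 lay above every reference (highest 205.2) and replicate 3 lay among them. The log2 difference was 1.21 ± 0.24 (95% interval 0.70 to 1.72; adjusted p = 0.0131). The call was lost without replicate 1 of this label (adjusted p = 0.0555). Against the tdT references the difference was 1.05 ± 0.28 (adjusted p = 0.106). An antisense gene overlaps 21.1% of the exon bases of Pcdh7, and since no source used here gives the strand setting of the counts, reads from the pair cannot be told apart.

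Pcdh19 CPM was 370.8, 322.7 and 67.2. Replicates 1 and 2 reached the level of Hoxa5tdTomato, and replicate 3 lay within the references (41.4 to 116.6). The log2 difference was 1.50 ± 0.36 (95% interval 0.74 to 2.27; adjusted p = 0.0413). An exact two-sided permutation test of this value alone missed the threshold (p = 0.0952). Against the tdT references the difference was 1.62 ± 0.45 (adjusted p = 0.125). With scaling by total counts alone it was 1.40 (adjusted p = 0.0771). The call also rested on every library but replicate 3: with any other library left out the adjusted p missed the threshold, up to 0.114, with log2 differences from 1.12 upward.

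The other members did not pass. Pcdh11x had 50.6, 28.5 and 3.76 CPM, its highest and its lowest values in any library (1.57 ± 0.53; adjusted p = 0.142). Pcdh8 had 3.77, 0.720 and 3.71 CPM, all below the lowest reference of 4.17, and it was the sole member with that pattern, against 3.27% of all tested genes (-1.33 ± 0.62; adjusted p = 0.29). Pcdh10 had 62.1, 67.5 and 105.2 (-0.42 ± 0.23; adjusted p = 0.372) and Pcdh17 had 258.4, 224.4 and 192.2 (0.38 ± 0.17; adjusted p = 0.274). Pcdh18 had 13.1, 14.1 and 0.0502 CPM, the last from a single count (0.50 ± 0.81; adjusted p = 0.801). Pcdh1, with 61.1, 67.8 and 31.7, did not differ detectably (0.01 ± 0.37; adjusted p = 0.995), and its sign turned negative against the tdT references (-0.47) and under total-count scaling (-0.09).

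Markers of other cells varied between these libraries. Replicate 2 lay above every reference in summed CPM of endothelial (55.7, against up to 34.8), pericyte (65.4, against up to 27.4) and meningeal markers (36.0, against up to 13.9). Replicates 1 and 3 lay within the references for all 3 lists, at 8.38 and 9.98, 17.6 and 5.22, and 1.68 and 4.06. Pcdh7, Pcdh9 and Pcdh19 were higher in replicate 1 than in replicate 2. Of 5 GABAergic markers 0 passed the test and 3 had an unadjusted p under 0.05, beside 2456 of 14732 tested genes. The median log2 difference of these 5 markers against all references was -4.67, with 1 above 0. Their summed CPM was not lower, at 146 to 323 against 133 to 266 in the references. Gad1 and Slc6a5 were at 0 in all libraries of this label. The part of these cells in the protocadherin levels was not tested.

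**Figure D3:**
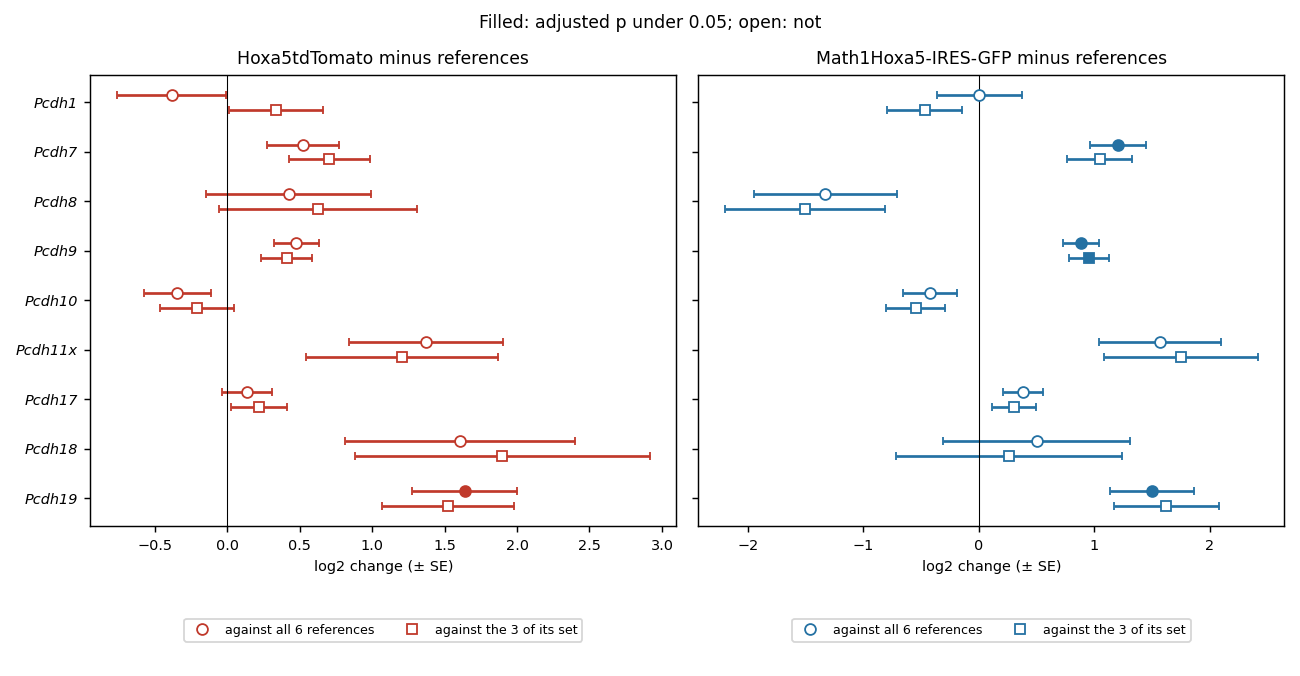
Log2 difference ± SE of each tested gene in Hoxa5tdTomato and in the libraries labelled Math1Hoxa5-IRES-GFP, against all 6 references (circles) and against the 3 references of the same set (squares); filled symbols have an adjusted p under 0.05. Pcdh19 is filled on circles in both panels, and Pcdh9 is filled on both symbols for Math1Hoxa5-IRES-GFP.

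In the libraries labelled Math1Hoxa5-IRES-GFP, replicate 3 lay apart from the other 2 for several genes. Relative to the mean of the tdT references on the log2 CPM scale, it stood at -5.21 for Pcdh18, -1.14 for Pcdh1, -1.02 for Pcdh11x, -0.17 for Pcdh19, 0.13 for Pcdh7 and 0.50 for Pcdh9. For Pcdh8 it was replicate 2 that lay apart, at -3.13 against -0.92 and -0.94 in replicates 1 and 3. Replicate 3 also had the highest Hoxa5 CPM of the 3, low Xist, and summed CPM of 0 over 5 microglial markers and 322.9 over 5 GABAergic markers, with 4 of these at 0. The part of these features in its protocadherin levels was not tested. Over the 3 libraries the coefficient of variation was 64.3% for Pcdh19, 84.8% for Pcdh11x, 86.3% for Pcdh18, 63.8% for Pcdh8, 43.2% for Pcdh7, 35.9% for Pcdh1, 30.0% for Pcdh10, 26.1% for Pcdh9 and 14.7% for Pcdh17, against a median of 46.2% over all tested genes.

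Without replicate 3, 4 of the 9 genes passed higher against all references, against 1.52% of all tested genes. Pcdh19 was then at 1.95 ± 0.25 (adjusted p = 0.000172), Pcdh7 at 1.52 ± 0.20 (adjusted p = 0.000207), Pcdh9 at 1.07 ± 0.14 (adjusted p = 0.000289) and Pcdh11x at 2.09 ± 0.38 (adjusted p = 0.00449). The same 4 passed against the tdT references alone, with log2 differences of 2.08, 1.36, 1.14 and 2.27, against 1.57% of all tested genes. Both remaining libraries lay above all 6 references for these 4 genes, against 7.01% of all tested genes. These 2 libraries are those whose Hoxa5 count lay within the range of the references.

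**Figure D4:**
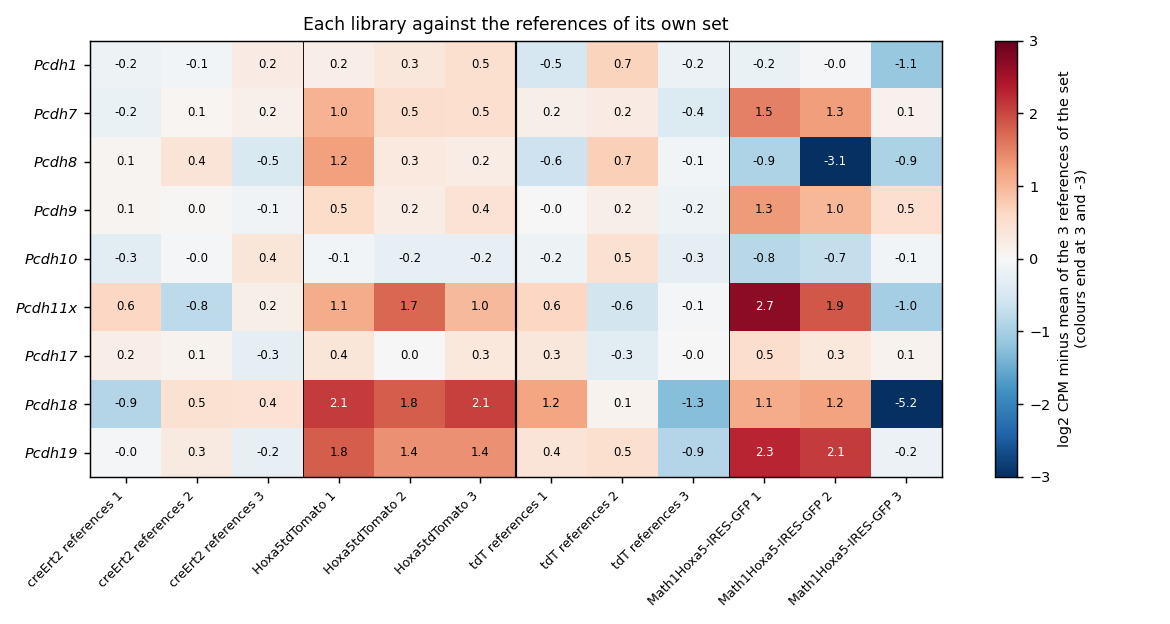
Log2 CPM of each tested gene in each library minus the mean of the 3 references of its set (rows are genes, columns are libraries, colours end at 3 and -3). Pcdh19 is high in all 3 Hoxa5tdTomato libraries and in replicates 1 and 2 of Math1Hoxa5-IRES-GFP, and Pcdh18 is at -5.21, past the end of the scale, in replicate 3.

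Hoxa5tdTomato and the libraries labelled Math1Hoxa5-IRES-GFP were then compared with each other. None of the 9 genes passed by edgeR or by DESeq2, against 3.35% of all tested genes by edgeR. Beside 3258 of 14732 tested genes, 3 members had an unadjusted p under 0.05 by edgeR. These were Pcdh7 (-0.68 ± 0.29, Hoxa5tdTomato minus Math1Hoxa5-IRES-GFP; adjusted p = 0.173), Pcdh8 (1.75 ± 0.69; adjusted p = 0.144) and Pcdh9 (-0.41 ± 0.19; adjusted p = 0.206). For Pcdh19 the difference was 0.14 with a 95% interval from -0.78 to 1.05 (adjusted p = 0.889). Without replicate 3 of Math1Hoxa5-IRES-GFP, Pcdh7 passed, lower in Hoxa5tdTomato by 1.00 on the log2 scale (adjusted p = 0.0421; 1 of 9, against 1.61% of all tested genes). These 2 groups come from different sets, so the set and the group cannot be told apart in this contrast.

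The difference between the 2 within-set changes, which takes the set into account, passed for no gene by edgeR (0%) and for 54 genes by DESeq2, with 0 members among them. Unadjusted p by edgeR was under 0.05 for 1181 genes, 2 of them members. Pcdh8 differed by 2.13 ± 0.97 (unadjusted p = 0.0436, adjusted p = 0.607), with a within-set value of 0.63 in Hoxa5tdTomato and -1.50 in Math1Hoxa5-IRES-GFP. Pcdh9 differed by -0.55 ± 0.25 (unadjusted p = 0.0432, adjusted p = 0.607), with 0.41 and 0.95. For Pcdh19 the difference was -0.10, with a 95% interval from -1.44 to 1.23.

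The 2 kinds of reference columns were compared to show how far they lie apart. They differ in the allele words of their names and in total counts, so set, allele and depth cannot be told apart here. None of the 9 genes passed by edgeR, against 1.34% of all tested genes. Beside 1894 of 14732 tested genes, 1 member had an unadjusted p under 0.05. This was Pcdh1, with 28.7, 30.4 and 37.8 CPM in the creErt2 references and 49.5, 110.6 and 62.2 in the tdT references, which did not overlap (-1.20 ± 0.33; adjusted p = 0.093). It passed by DESeq2 (adjusted p = 0.0143) and without replicate 3 of Math1Hoxa5-IRES-GFP (adjusted p = 0.011). For Pcdh19, Pcdh9 and Pcdh7 the difference between reference kinds was 0.24 ± 0.45, 0.14 ± 0.18 and -0.34 ± 0.28.

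The 2 X-linked genes were looked at beside Xist. Among the 3 libraries with low Xist, Pcdh19 CPM was 340.2 in Hoxa5tdTomato replicate 1, the highest of its group, 106.4 in tdT reference replicate 2, also the highest of its group, and 67.2 in Math1Hoxa5-IRES-GFP replicate 3, the lowest of its group. No single direction held over the 3 for Pcdh19. For Pcdh11x these libraries had 21.2, 5.25 and 3.76 CPM, each below the mean of its group (24.1, 8.19 and 27.6). The first was the middle value of its group, and 5.25 and 3.76 were the lowest of theirs. The relation of these levels to Xist was not tested.

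Other genes of the family and of its known pathway were counted from lists. Of the other non-clustered protocadherins and related cadherins (Pcdh12, Pcdh15, Cdhr1, Cdhr2 and Cdhr5), 4 were tested and 0 passed in either comparison with the references as fitted on all libraries. The smallest p in Hoxa5tdTomato was that of Pcdh12, known from endothelium, with 1.51, 4.38 and 4.57 CPM there, 0 in all creErt2 references, 0 to 0.362 in the tdT references and 0 in all libraries labelled Math1Hoxa5-IRES-GFP. Since it passed the filter on low counts only through Hoxa5tdTomato, where it is high, its calls are not used (adjusted p = 0.0787 against all references, 0.0351 to 0.0754 under other settings). The endothelial markers given above moved with it. In the libraries labelled Math1Hoxa5-IRES-GFP the smallest p was that of Pcdh15, a tip-link protein of hair cells (-1.89 ± 0.49; adjusted p = 0.0584). It passed with counts thinned to the smallest total (adjusted p = 0.0403), by DESeq2 (0.000949) and without replicate 3 (0.0416). Cdhr1, a photoreceptor cadherin, passed higher by DESeq2 (0.0223) and without replicate 3 (0.0255).

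Of 57 clustered protocadherins, which give neurons their individual surface identity, 56 were tested. In Hoxa5tdTomato 0 passed in either direction (median log2 difference -0.17). In the libraries labelled Math1Hoxa5-IRES-GFP 14 passed higher, against 1.30% of all tested genes, and 0 lower (median 0.44). With scaling by total counts alone 2 passed higher, and by DESeq2 21 did. Against the tdT references 0 passed (median 0.30), while 0.536% of all tested genes passed higher. Without replicate 3, 14 passed, while 1.57% of all tested genes passed higher. Between the conditions 17 were lower in Hoxa5tdTomato, beside 358 of 14732 tested genes. The count of clustered genes was 0 with scaling by total counts alone and 0 without replicate 3. Many of these genes share exons, so their counts are uncertain.

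Of 18 classical cadherins, 15 were tested. Cdh2, the N-cadherin that binds Pcdh19 and Pcdh8, was the sole one to pass lower in Hoxa5tdTomato in the fit of all libraries. Cdh24 also passed lower without replicate 3 of Math1Hoxa5-IRES-GFP (adjusted p = 0.0337). Cdh2 had 259.7, 243.5 and 297.6 CPM against 441.9, 386.4 and 375.3 in the creErt2 references and 571.9, 459.4 and 459.0 in the tdT references. The groups did not overlap, while 6.93% of all tested genes lay below all 6 references. The log2 difference was -0.75 ± 0.15 (adjusted p = 0.0184), or -0.59 against the creErt2 references alone (adjusted p = 0.094). A link between the levels of Cdh2 and Pcdh19 was not tested. In the libraries labelled Math1Hoxa5-IRES-GFP Cdh2 had 315.0, 363.5 and 305.0 CPM, also below all references, against 3.27% of all tested genes (-0.45 ± 0.15; adjusted p = 0.133). The sole cadherin to pass there was Cdh4, R-cadherin (1.09 ± 0.25; adjusted p = 0.0342). It missed the threshold with scaling by total counts alone (adjusted p = 0.0588), against the tdT references (adjusted p = 0.178) and without replicate 3 (0.66; adjusted p = 0.181).

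Of 13 genes of the WAVE complex and its actin partners, the machinery that δ2 tails recruit, 0 passed in either comparison, with medians of -0.14 and 0.02. Unadjusted p was under 0.05 for 3 and 2 of them, beside 2148 and 2456 of 14732 tested genes. The smallest p was that of Abi2, a WAVE subunit, in both (-0.52 ± 0.19, adjusted p = 0.188, in Hoxa5tdTomato; 0.56 ± 0.18, adjusted p = 0.122, in the libraries labelled Math1Hoxa5-IRES-GFP). Between the 2 conditions Abi2 passed, lower in Hoxa5tdTomato (-1.08 ± 0.22; adjusted p = 0.0251), but missed the threshold with scaling by total counts alone (-0.78; adjusted p = 0.0539). Of 13 other partners, among them the 3 catalytic subunits of protein phosphatase-1, Set, Dab1, Taok2 and Smad3, Cdh2 alone passed in Hoxa5tdTomato and 0 passed in the libraries labelled Math1Hoxa5-IRES-GFP, where Smad3, a transducer of TGF-β signals that binds Pcdh1, was nearest (-2.57 ± 0.64; adjusted p = 0.0502). Smad3 passed there with thinned counts (adjusted p = 0.0346), by DESeq2 (0.000383) and without replicate 3 (0.03). By DESeq2 Set also passed higher there (0.0275), and so did Dab1 in Hoxa5tdTomato (0.0275). Without replicate 3 of Math1Hoxa5-IRES-GFP, Dab1 passed higher in both comparisons (0.00647 in Hoxa5tdTomato and 0.00478 in the other). The medians of this list were -0.18 and 0.06.

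**Figure D5:**
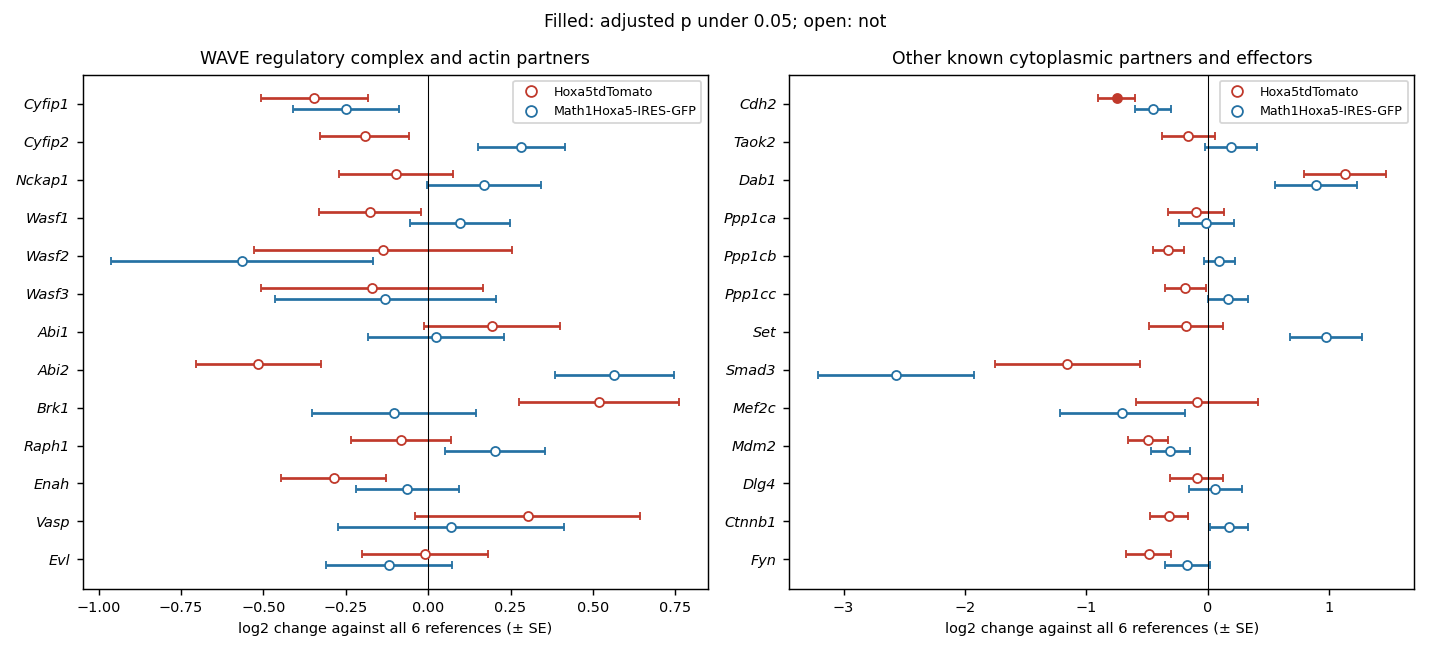
Log2 difference ± SE against all 6 references for genes of the WAVE complex and actin partners and for other partners of the non-clustered protocadherins, in both conditions. Cdh2, at -0.75 in Hoxa5tdTomato, is the gene of these lists with an adjusted p under 0.05, and the medians of the lists lie between -0.18 and 0.06.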

How the data were processed

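The authors deposited a single table of whole-number read counts per gene (Entrez ID, symbol and length in bases). Reads were demultiplexed with bcl2fastq 1.8.4 and the mm10 genome was used, per the submitters' processing notes. For the aligner, the counter and the use of strand, the entry is: not given in the sources used here. Rows without a symbol (15, with 0.00106% of counts) were left out.

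Counts were fitted in R 4.3.3 with edgeR 4.0.16's quasi-likelihood test (TMM scaling, filterByExpr with a minimum count of 10, Benjamini-Hochberg adjustment over 14732 genes, threshold 0.05), first with 3 groups and the references pooled, as the series design states, then with 4 column-name groups. Standard errors are |log2 difference|/√F. DESeq2 1.42.0 was an alternative. The fits were tested on simulated data. No 2 libraries had identical counts.

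All 10 members were named, with any list gene past the threshold or else the one with the smallest p. Members and lists were chosen with earlier results of these data known. Fits on the libraries of a single set and without a library in the 4-group fit were added after the data were seen.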

Additional observations from a re-analysis of the deposited data

Results flagged for a closer look

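Pcdh18 had a single reference library apart from the others. Replicate 1 of the tdT references had 13.8 CPM, while the other 5 references had 2.40 to 6.66. The gap to its nearest neighbour was 0.626 of the whole range of the 6 references, just above Dixon's critical value of 0.625. The other 9 genes were under it, and chance alone flags about 1 in 20 such groups. The 3 Hoxa5tdTomato libraries (17.2 to 21.2 CPM) lay above this library too.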

How the results depend on the processing

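No paired effect of the replicate numbers was seen (r of deviations -0.0281 to 0.0493), so they were not used as pairs. Fitting 4 groups gave 0 members and 82 genes for Hoxa5tdTomato, 1 and 127 for Math1Hoxa5-IRES-GFP, and 1191 genes between the conditions. Adding the replicate block gave 0 and 79, 1 and 89, and 967. The within-set changes gave 5 and 0 members when fitted on the 6 libraries of their own set, where 4.18% and 0.0522% of the genes tested passed higher. DESeq2 gave 622, 831 and 1484 genes, 589 between reference kinds with 1 member (Pcdh1), and 54 for the difference of within-set changes. Total-count scaling gave 148 genes between the conditions (116 higher and 32 lower, against 135 and 358) and 170 and 70 for Hoxa5tdTomato (against 124 and 131), 105 and 94 for Math1Hoxa5-IRES-GFP (against 191 and 80), and 139 and 48 between reference kinds (against 105 and 92). By DESeq2 the splits were 426 and 405 for Math1Hoxa5-IRES-GFP and 629 and 855 between the conditions. Total-count scaling moved the median of all genes to 0.16 for Hoxa5tdTomato, -0.13 for Math1Hoxa5-IRES-GFP, 0.30 between the conditions, 0.10 between reference kinds and 0.15 for the difference of within-set changes. No count filter, a minimum count of 50 and thinning to the smallest total kept the same members past the threshold.

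Some signs turned, none of them of a difference past the threshold. Pcdh1 was at 0.34 (4 groups) and 0.33 (replicate block) in Hoxa5tdTomato, and at -0.47, -0.44 and (total counts) -0.090 in Math1Hoxa5-IRES-GFP. Between the conditions Pcdh11x was at 0.10 with the block and 0.043 with total counts, and Pcdh17 at 0.030 with total counts. For the difference of within-set changes, Pcdh19 was at 0.015 with the block and 0.053 with total counts, and Pcdh17 at 0.080.

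With 1 library left out, Hoxa5tdTomato had 0 to 4 members past the threshold (35 to 728 genes) and Math1Hoxa5-IRES-GFP 1 to 4 (190 to 575). The contrast of conditions had 0 to 1 (0 to 1157), that of reference kinds 0 to 1 (38 to 784) and the difference of within-set changes 0 to 3 genes. Within set 1 it was 0 to 2 members and within set 2 it was 0 to 4. The 4 came without replicate 3 of Math1Hoxa5-IRES-GFP, where 1.57% of all tested genes passed higher. For set 1 no share of all tested genes is given here, so its range is a description. Ranges that crossed 0 were -0.20 to 0.36 for Pcdh1 in Math1Hoxa5-IRES-GFP and -0.20 to 1.03 for Pcdh18 within set 2. Between the conditions they were -0.070 to 0.34 for Pcdh10, -0.72 to 0.58 for Pcdh11x and -0.32 to 0.51 for Pcdh19. For the difference of within-set changes they were -1.06 to 0.23 for Pcdh11x, -0.25 to 0.079 for Pcdh17 and -0.55 to 0.28 for Pcdh19. Between reference kinds they were -0.64 to 0.056 for Pcdh8, -0.31 to 0.025 for Pcdh17, -0.96 to 0.23 for Pcdh18 and -0.087 to 0.46 for Pcdh19. The cause of these shifts was not tested.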
